A study of Mus musculus with 12 samples.

Results

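The genes described here make itaconate or take up, use and restore arginine in macrophages. They are Irg1, Slc7a2, Nos2, Gch1, Ass1, Asl, Arg1, Arg2 and Odc1, 9 of the 24421 gene symbols in the count table, and they were taken by symbol. Irg1 is the table's name for Acod1. The RNA came from C57BL/6 mouse BMDMs, macrophages grown from bone marrow over 5 days with 100 ng/mL of macrophage colony-stimulating factor and a change of medium on day 3. For 4 hours the cells received ovalbumin (Ova) or ovalbumin in an insoluble immune complex with IgG (IC), which cross-links Fc gamma receptors. Each stimulus was given with the solvent DMSO, which the labels put at 5% although the study's methods do not give that share for these cells, or with I-BET151 (iBET) at 5.0 µM, a drug that keeps the BET bromodomain proteins from acetylated histones. The order of drug and stimulus is uncertain, since the labels have them added together and the study's methods have the drug added first. The 12 libraries come from 3 mice (A, B and C), every one of which is represented once in DMSO Ova, in iBET Ova, in DMSO IC and in iBET IC. The animals' sex and age were not given for single libraries, and all 4 groups share the strain, the growth factor and the ovalbumin.

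Irg1 encodes the mitochondrial enzyme that turns cis-aconitate into itaconate, an antimicrobial metabolite that also inhibits succinate dehydrogenase. Arginine enters the cell partly through the carrier encoded by Slc7a2. Inducible nitric oxide synthase (Nos2) splits it into nitric oxide and citrulline, with a cofactor, tetrahydrobiopterin, whose synthesis starts with the enzyme encoded by Gch1, and the enzymes encoded by Ass1 and Asl rebuild arginine from citrulline. The arginases, cytosolic Arg1 and mitochondrial Arg2, instead give urea and ornithine, which ornithine decarboxylase (Odc1) turns into putrescine, the precursor of the polyamines. Nos2 and Arg1 are textbook markers of inflammatory and alternatively activated mouse macrophages.

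Total counts ran from 7549849 to 17387639 per library. In 11 libraries the ribosomal precursor Rn45s took 1.41% to 7.83% of the counts, but in mouse A's DMSO Ova library its share was 77.4%, which left 1768133 counts for all other genes, so called changes that rest on that library are also given without it. The 7 macrophage markers examined (Csf1r and Adgre1 among them) summed to 3614 to 4528 CPM (counts scaled to each library's depth) in every library. Markers of B, T and NK cells, mast cells, dendritic cells and fibroblasts summed to at most 1.32 CPM, and the 3 mast cell and basophil genes were at 0 throughout. Granulocyte and granulocyte-precursor markers (4 of 5 in the table) summed to 5.65 to 33.5 CPM and were highest in mouse C in every group.

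Promoter sequence was found for 4 of the 9 genes in the RefSeq promoter table (build GRCm38.p6), namely Irg1 (as Acod1), Gch1, Ass1 and Odc1. Slc7a2, Nos2, Asl, Arg1 and Arg2 had no entry. The windows run from 250 bases before the RefSeq start site to 50 after it. In them 6 motifs were searched on both strands, namely the TATA motif and motifs of regulators of inflammatory and growth genes. Shown are the stretches that lie upstream of both the RefSeq and the GENCODE start for Irg1, the gene with the largest response to IC here, and for Gch1 and Odc1, which both rose with iBET. Capitals mark motif matches, each sequence is written 5′ to 3′ on the strand of its gene, and the positions in order are chr14:103046762-103046976 (plus), chr14:47189414-47189663 (minus) and chr12:17544623-17544793 (plus).
Irg1: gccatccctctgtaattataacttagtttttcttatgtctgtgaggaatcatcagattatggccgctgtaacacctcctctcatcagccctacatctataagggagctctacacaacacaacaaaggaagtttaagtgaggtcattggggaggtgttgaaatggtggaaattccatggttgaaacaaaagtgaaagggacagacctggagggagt
Gch1: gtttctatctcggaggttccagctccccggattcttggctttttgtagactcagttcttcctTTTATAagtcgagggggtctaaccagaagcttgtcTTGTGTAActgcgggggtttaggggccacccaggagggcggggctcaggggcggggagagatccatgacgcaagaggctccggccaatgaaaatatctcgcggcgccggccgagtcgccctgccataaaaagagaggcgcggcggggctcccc
Odc1: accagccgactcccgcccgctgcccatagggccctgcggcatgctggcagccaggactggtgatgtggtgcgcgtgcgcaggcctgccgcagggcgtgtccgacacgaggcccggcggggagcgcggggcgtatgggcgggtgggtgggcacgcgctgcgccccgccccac
Shares are of 27025 mouse promoters of this length. The AP-1 motif (TGANTCA) was found in 7.93% of them and the C/EBP motif (TTNCNNAA) in 40.7%. The E-box (CACGTG) was found in 7.24%, and the TATA motif (TATAAA) in 14.2%. The kB motif, GGG followed after 3 free bases by TTCC, was found in 5.52%. The interferon-stimulated response element (ISRE), searched as GAAA repeated after 2 free bases, was found in 3.49%. Each was counted on its own, whether or not it overlapped another. The Irg1 window held 1 match, TATAAA at 28 to 23 bases before the RefSeq start, which falls in the first exon of the GENCODE model and is therefore not in the stretch shown. The Gch1 stretch held 2 matches on the opposite strand, a C/EBP match (TTGTGTAA as written) 153 to 146 bases upstream and a TATA match (TTTATA as written) 188 to 183 bases upstream. The Ass1 window held 1 E-box, and the Odc1 window held none of the 6.

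Levels of different genes were compared per length, as RPKM, which is CPM divided by the exon length in kilobases. Odc1 was far above the others in every group, at 85.6 ± 11.6 RPKM in DMSO Ova (SD, n = 3) and 266 ± 5.28 in iBET IC. In DMSO Ova the order after Odc1 was Ass1 at 6.59 ± 4.21 RPKM, Asl at 5.33 ± 0.333, Irg1 at 2.25 ± 1.12, Slc7a2 at 1.82 ± 0.307, Arg1 at 1.71 ± 0.164 and Gch1 at 1.70 ± 0.252. Among these, neighbours overlapped in their libraries with 1 exception, the step from Asl down to Irg1. In DMSO IC, Irg1 moved up to 19.3 ± 5.54 RPKM, above every other gene of the 9 except Odc1, and in iBET Ova it lay at 0.548 ± 0.227 RPKM, next to Arg1 at 0.428 ± 0.283. RPKM of Odc1 could include reads of its 14 near copies (13 of them processed pseudogenes, 91.8% to 97.8% identical over the aligned bases), and Ass1 has 1 such copy at 99.5%, because the treatment of reads with several alignments was not given in the sources used here.

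**Figure D1:**
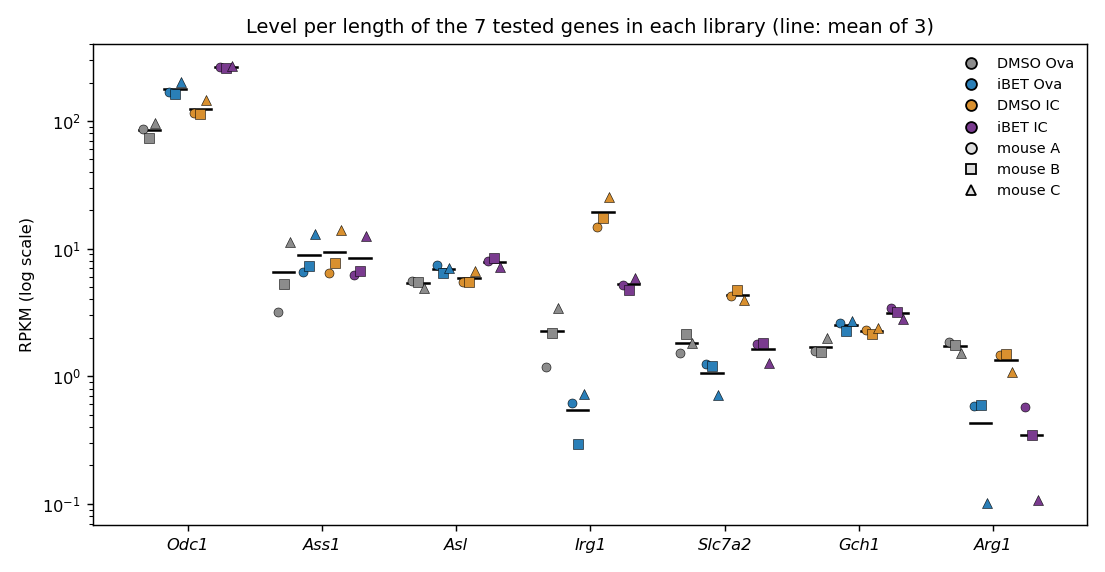
Level per length (RPKM, log axis) of the 7 genes that passed the filter on low counts, with 1 point per library, shape for the mouse, colour for the group and a line for the mean of 3. Odc1 sits above 70 RPKM in all libraries, and Irg1 spans the widest range between group means, from 0.548 in iBET Ova to 19.3 in DMSO IC.

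Nos2 and Arg2 were at or near 0 and did not enter the tests. Nos2 had 0 counts in all 6 Ova libraries, 1, 0 and 2 counts in DMSO IC and 0, 1 and 0 in iBET IC (mice A, B and C). Arg2 had 0, 0 and 4 counts in DMSO Ova, 4, 0 and 1 in iBET Ova, 1, 0 and 2 in DMSO IC and 6, 2 and 1 in iBET IC. A count of 0 allows up to 3 counts, which is 0.16 to 0.36 CPM in 11 libraries and 1.54 CPM in the shallow DMSO Ova library, so no difference between groups was detectable for either gene at this depth. Intervals and limits of this kind cover counting error only. Without the filter, edgeR's quasi-likelihood test gave no call for either gene in any contrast, with the lowest adjusted p at 0.525, for Arg2 with iBET in IC. Reads over Arg2 cannot be assigned to it alone either, since 285 of its exonic bases overlap Vti1b on the opposite strand and the use of strand in counting was not stated.

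**Figure D2:**
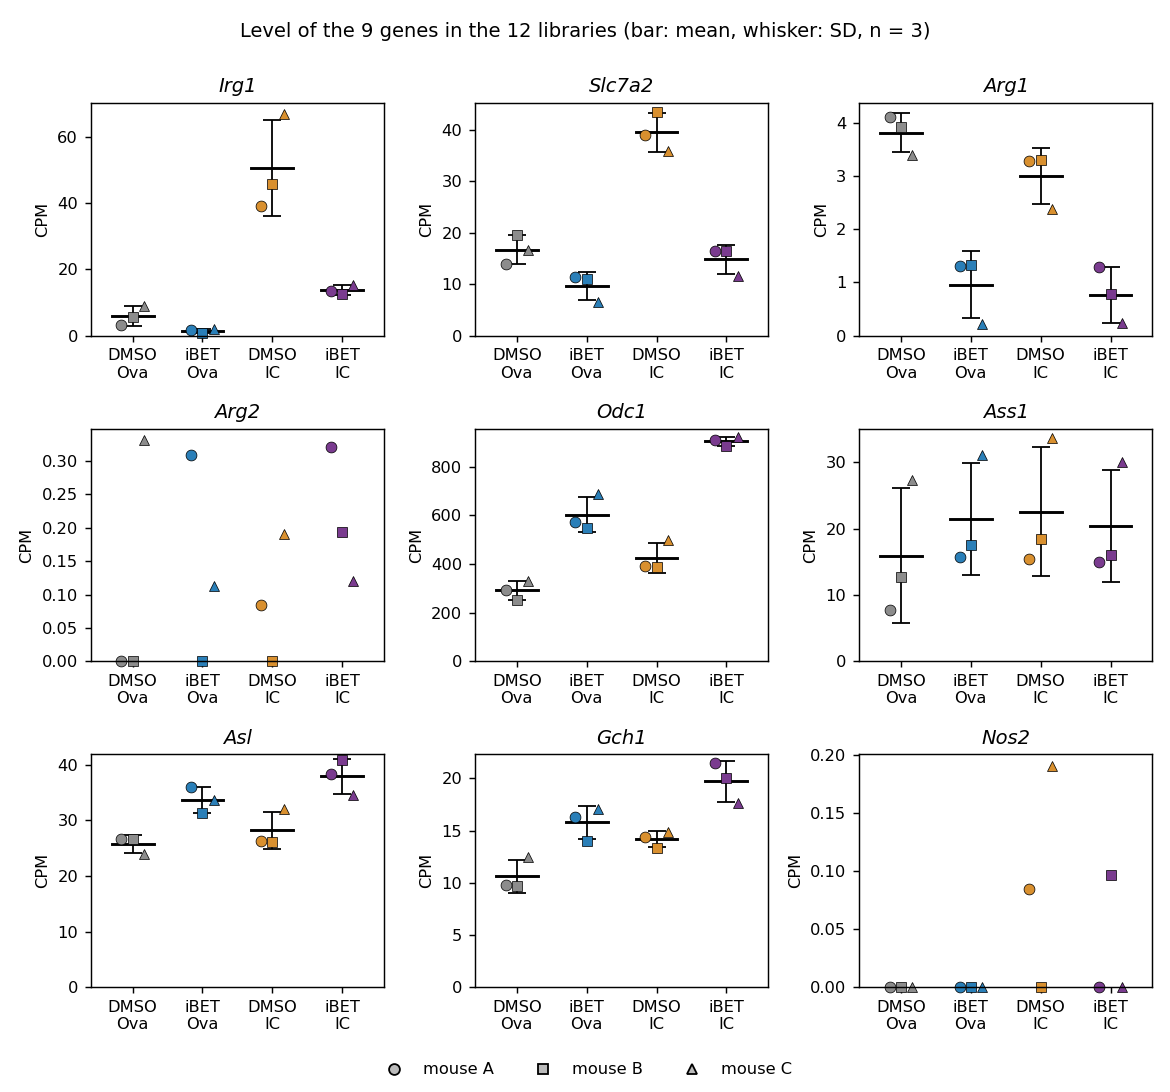
CPM of each of the 9 genes in the 12 libraries, by group, with shape for the mouse. Bars are means and whiskers SD of 3 libraries, left out for Nos2 and Arg2, whose points stand for at most 6 counts each. Irg1 and Slc7a2 peak in DMSO IC, Odc1 peaks in iBET IC, and Ass1 is highest in mouse C in each group.

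Across the 7 genes tested, IC raised Irg1 and Slc7a2 in DMSO-treated cells and Irg1 in iBET-treated cells. iBET lowered Irg1, Arg1 and Slc7a2 and raised Odc1, Gch1 and Asl, with either stimulus. The test was edgeR's quasi-likelihood F test with Benjamini-Hochberg adjustment over 11468 genes, and calls are those with adjusted p below 0.05. IC against Ova in DMSO called 2 of the 7, both higher, against a background of 1.22% of all genes tested (0.732% higher and 0.488% lower). In iBET it called 1, also higher, against 0.349% (0.314% higher and 0.0349% lower). These backgrounds of 140 and 40 genes moved with single libraries, down to 45 without DMSO Ova B and 12 without iBET Ova B. iBET against DMSO called 3 higher and 3 lower in Ova, where 31.3% of all genes were called (17.1% higher and 14.2% lower), and again 3 higher and 3 lower in IC, where 34.8% were called (19% higher and 15.8% lower). Among the genes called for iBET in Ova, 54.6% were higher, against 48.0% without DMSO Ova A and 49.2% in DESeq2. In IC these shares were 54.6%, 50.7% and 49.7%. The median log2 fold change of the 7 was 0.40 for IC in DMSO and 0.32 for IC in iBET, beside −0.01 for all genes in both, and 0.32 and −0.16 for iBET in Ova and in IC, beside 0.02 and −0.00. Each IC contrast shares a group of libraries with each iBET contrast. The 2 IC contrasts have no library in common, nor do the 2 iBET contrasts, but the same 3 mice are in all of them. A lower level in a bulk sample can mean fewer cells that hold the RNA or less RNA per cell, which cannot be told apart. All levels, higher or lower, are relative to the other RNA of a library. A change in the total RNA per cell would therefore not show, and the normalization itself keeps the median of all genes low.

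**Figure D3:**
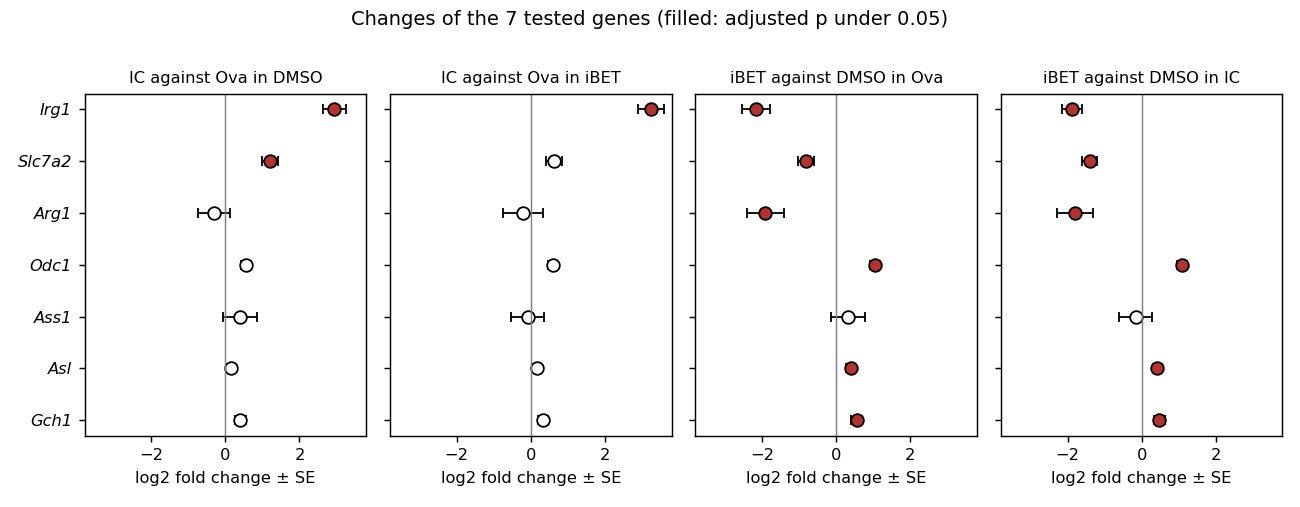
Log2 fold changes with their SE for the 7 tested genes in the 4 contrasts, filled where the adjusted p was under 0.05. Irg1 lies near 3 for IC in both arms and near −2 for iBET with both stimuli, while Odc1 lies near 1 for iBET with both.

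Irg1, the itaconate enzyme (chr14:103046977-103056573, plus strand, GRCm38), had the widest range. With Ova alone it stood at 3.08, 5.67 and 8.95 CPM in mice A, B and C in DMSO and at 1.62, 0.772 and 1.92 in iBET. With IC it reached 39.0, 45.8 and 66.9 CPM in DMSO and 13.5, 12.5 and 15.3 in iBET. No 2 of the 4 groups overlapped, and the iBET IC libraries lay between DMSO Ova and DMSO IC. IC raised it by 2.94 on the log2 scale in DMSO (adjusted p = 0.00137, SE 0.31, 7.70-fold) and by 3.24 in iBET (adjusted p = 0.00148, SE 0.35), in 3 of 3 mice each time. Ranked by log2 fold change among the 11468 genes, it was number 3 in DMSO and number 1 in iBET. The study singled Irg1 out on these libraries, so its response is not independent evidence.

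With iBET, Irg1 fell by 2.17 on the log2 scale in Ova (adjusted p = 0.000972, SE 0.37) and by 1.88 in IC (adjusted p = 0.000316, SE 0.28), in 3 of 3 mice each. The interaction, the log2 response to IC under iBET less that under DMSO, was 0.29 (SE 0.46, 95% interval −0.71 to 1.29, unadjusted p = 0.536), with per-mouse values of −0.67, 0.75 and 0.01, so no difference in the fold response between arms was detectable. The DMSO Ova library of mouse A held 6 Irg1 counts, and without it the response to IC in DMSO was 2.77 (adjusted p = 0.00366) and the change with iBET in Ova was −2.37. Both IC calls were lost without mouse B (adjusted p = 0.285 in DMSO and 0.323 in iBET, with log2 fold changes of 2.92 and 3.03), a fit that called 0 of all genes for IC in either arm by edgeR, with 600 and 289 at an unadjusted p under 0.05. Fitted on the 2 compared groups alone, the call in DMSO was lost too (adjusted p = 0.0640).

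The 3 genes whose log2 CPM ran most like that of Irg1 over the 12 libraries, among 9356 genes compared, were Clec4e, the receptor Mincle (Pearson r = 0.981), Vasp, an actin regulator (0.980), and Ipo5, an importin (0.948). These are descriptions across 12 libraries that share the 4 groups and the 3 mice. Within the 9 genes, Slc7a2 was most like Irg1 (r = 0.84).

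Slc7a2, the arginine carrier CAT2 (chr8:40862396-40922308, plus strand), also responded to both IC and iBET. In DMSO it stood at 13.9, 19.5 and 16.6 CPM with Ova and at 39.0, 43.4 and 35.9 with IC. In iBET it stood at 11.3, 11.0 and 6.54 CPM with Ova and at 16.4, 16.5 and 11.6 with IC. All 3 DMSO IC libraries lay above every other library, and iBET IC overlapped DMSO Ova. IC raised Slc7a2 by 1.21 in DMSO (adjusted p = 0.0159, SE 0.21, 3 of 3 mice). In iBET the log2 fold change was 0.62 (adjusted p = 0.444, SE 0.21), positive in 3 of 3 mice.

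With iBET, Slc7a2 fell by 0.82 in Ova (adjusted p = 0.0128, SE 0.22) and by 1.4 in IC (adjusted p = 0.00024, SE 0.20), in 3 of 3 mice each. The interaction was −0.59 (SE 0.30, 95% interval −1.23 to 0.06, unadjusted p = 0.0700, adjusted p = 1.00), negative in 3 of 3 mice, and thus did not pass the test. The call for IC in DMSO was lost without DMSO Ova B or C or DMSO IC B (adjusted p = 0.0513, 0.0736 and 0.0621), without mouse B or C (0.589 and 0.0956) and in the 2 groups alone (0.0756), and that for iBET in Ova without DMSO Ova B (0.0668) and without mouse B or C (0.142 and 0.0593). Without DMSO Ova A these 2 changes were 1.11 and −0.95. The lincRNA Gm26584 overlaps 635 exonic bases of Slc7a2 on the opposite strand. Most like Slc7a2 over the libraries were Dusp4, a phosphatase of MAP kinases (r = 0.979), Orai2, a calcium channel subunit (0.978), and Alkbh1 (0.959).

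Gch1, the entry enzyme of tetrahydrobiopterin synthesis (chr14:47153895-47189413, minus strand), rose with iBET. Its libraries held 9.76, 9.66 and 12.4 CPM in DMSO Ova against 16.3, 14.0 and 17.0 in iBET Ova, and 14.4, 13.3 and 14.9 in DMSO IC against 21.5, 20.1 and 17.6 in iBET IC. Neither pair of groups overlapped. The rise was 0.55 in Ova (adjusted p = 0.0152, SE 0.15) and 0.48 in IC (adjusted p = 0.0210, SE 0.14), in 3 of 3 mice each. With IC it was 0.40 in DMSO (adjusted p = 0.295, SE 0.15) and 0.32 in iBET (adjusted p = 0.630, SE 0.14), positive in every mouse but not called.

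The Gch1 log2 fold change ran from 0.46 to 0.70 in Ova and from 0.41 to 0.58 in IC over the fits that left out 1 library or mouse, and was 0.47 (adjusted p = 0.0479) in Ova without DMSO Ova A. In Ova the call was lost without DMSO Ova B (adjusted p = 0.0762), without mouse A, B or C (0.0703, 0.136 and 0.0503) and in the 2 groups alone (0.0635), and in IC without DMSO IC B, iBET IC A or iBET IC B (0.0646, 0.0864 and 0.0570) and without mouse A or B (0.103 and 0.187). Of the tetrahydrobiopterin list, 5 of 7 genes were tested and 2 rose with iBET in both stimuli, beside the 17.1% and 19% of all genes that rose, and none fell. These were Qdpr, which recycles the cofactor (0.51 in Ova, adjusted p = 0.00248, and 0.46 in IC, 0.00368), and Pts, the enzyme after Gch1 (0.73 and 0.72, adjusted p = 0.0470 and 0.0327). The Pts call held in 2 of the 12 fits that each left out 1 library in Ova (adjusted p up to 0.227) and in 8 in IC (up to 0.112). Without mouse B it was 0.35 in Ova (0.526), without mouse C the Ova call was lost too (0.110), and the IC call was lost without any 1 mouse (0.0869 to 0.155). The Qdpr calls did not pass without mouse C (0.0655 in Ova, 0.0519 in IC) or, in IC, without mouse B (0.0619). The antisense gene Gm42413 overlaps 332 exonic bases of Qdpr. Genes most like Gch1 were the chemokine gene Ccl7 (r = 0.953), Odc1 (0.949) and the kinase gene Pim1 (0.949).

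Asl and Ass1, which close the route from citrulline back to arginine, differed in what the libraries showed. Asl (chr5:130011258-130029247, minus strand) held 26.7, 26.6 and 23.9 CPM in DMSO Ova against 36.0, 31.3 and 33.7 in iBET Ova, and 26.3, 26.2 and 32.1 in DMSO IC against 38.3, 40.8 and 34.6 in iBET IC. The iBET libraries lay above the DMSO libraries with each stimulus. It rose by 0.40 in Ova (adjusted p = 0.0253, SE 0.12) and by 0.43 in IC (adjusted p = 0.0133, SE 0.12), in 3 of 3 mice each. For IC it stood at 0.14 in DMSO (adjusted p = 0.774) and 0.17 in iBET (adjusted p = 0.816).

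The Asl call in Ova was lost without DMSO Ova A, B or C or iBET Ova A or C (adjusted p = 0.0567, with a log2 fold change of 0.37, then 0.0510, 0.106, 0.0902 and 0.0560), without each of the mice (0.0877, 0.120 and 0.162) and in the 2 groups alone (0.0720). In IC it was lost without DMSO IC A or B or iBET IC B (0.0540, 0.05 and 0.0566) and without mouse A or B (0.0677 and 0.228). The genes most like Asl were Atg16l1, an autophagy gene (r = 0.959), Smim7 (0.947) and Ell, an elongation factor of RNA polymerase II (0.935).

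Ass1 (chr2:31470207-31520672, plus strand) was not called in any contrast. It varied between mice more than between groups, with 7.70, 12.7 and 27.3 CPM in DMSO Ova and 15.7, 17.5 and 31.1 in iBET Ova. With IC it held 15.5, 18.5 and 33.6 CPM in DMSO and 14.9, 16.1 and 30.1 in iBET. Mouse C was highest in each group, as it was for the granulocyte markers, whose part in this was not tested. The log2 fold changes were 0.40 and −0.08 for IC in DMSO and in iBET (SE 0.46 and 0.45) and 0.32 and −0.16 for iBET in Ova and in IC (SE 0.46 and 0.45). With mouse as a replicate block the rise with iBET in Ova was called, at 0.43 (adjusted p = 0.0316, SE 0.14). Without the block it was 0.05 once DMSO Ova A, which held 15 Ass1 counts, was left out.

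Arg1, the cytosolic arginase (chr10:24915221-24927484, minus strand), fell with iBET from a low level. In DMSO it held 4.11, 3.91 and 3.40 CPM with Ova and 3.28, 3.30 and 2.38 with IC, and in iBET 1.31, 1.32 and 0.226 with Ova and 1.28, 0.775 and 0.240 with IC. No iBET library reached the lowest DMSO library, and mouse C had the lowest value of each group. These values stand for 100, 94, 31 and 34 counts in all over the 3 libraries of DMSO Ova, DMSO IC, iBET Ova and iBET IC, with 2 counts in each iBET library of mouse C. On the log2 scale it fell by 1.91 in Ova (adjusted p = 0.0104, SE 0.49) and by 1.80 in IC (adjusted p = 0.0113, SE 0.48), in 3 of 3 mice each. Leaving out DMSO Ova A gave −1.93 in Ova.

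IC left Arg1 at −0.32 in DMSO and −0.21 in iBET, with adjusted p at 0.890 and 0.972. Both iBET calls held in each of the 12 fits that left out 1 library and were lost without mouse B, at adjusted p = 0.123 in Ova and 0.153 in IC. Thbs1 (r = 0.963), which encodes a secreted matrix protein, Tgif1 (0.963), a transcriptional repressor, and C3ar1 (0.962), a complement receptor, ran most like Arg1.

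Odc1, the enzyme that makes putrescine from ornithine (chr12:17544794-17551505, plus strand), had the highest level per length of the 9. Its libraries held 294, 251 and 330 CPM in DMSO Ova and 574, 549 and 686 in iBET Ova. With IC they held 393, 387 and 497 CPM in DMSO and 908, 885 and 920 in iBET. The 4 groups did not overlap, and iBET IC was the highest. iBET raised Odc1 by 1.05 in Ova (adjusted p = 0.000109, SE 0.13) and by 1.09 in IC (adjusted p = 7.3e-05, SE 0.13), in 3 of 3 mice each. Leaving out DMSO Ova A gave 1.00 in Ova.

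For IC against Ova, Odc1 stood at 0.55 in DMSO (adjusted p = 0.0806, SE 0.13) and 0.59 in iBET (adjusted p = 0.126, SE 0.13), positive in 3 of 3 mice in each arm and short of the threshold. With mouse as a replicate block both passed it, with an adjusted p of 0.00712 in each arm, and the block moved the number of all genes called from 140 to 315 in DMSO and from 40 to 85 in iBET. The iBET calls of Odc1 held in all 15 fits that left out 1 library or 1 mouse. Mapkapk2, a kinase downstream of p38 (r = 0.977), Cyfip2, an actin regulator (0.977), and Plek (0.976) ran most like it. Across the 12 libraries Odc1 ran against Arg1 (r = −0.85) and with Asl (0.90), again as a description of libraries that share 4 groups.

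Of the 13 other genes of polyamine metabolism, which act after Odc1 or control it, all were tested. With iBET 7 were higher, 1 lower and 5 not called in Ova, and 7 were higher, 2 lower and 4 not called in IC, beside the 17.1% and 14.2%, and 19% and 15.8%, of all genes. Without mouse B the counts were 2 higher and 0 lower in Ova and 3 higher and 1 lower in IC. In that fit 1310 and 1769 of 11484 genes were called. Their median log2 fold change was 0.55 in Ova and 0.52 in IC, and IC against Ova called 0 of the 13 in either arm by edgeR, with 2 and 0 at an unadjusted p under 0.05.

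Sat1, which encodes the acetyltransferase that starts polyamine breakdown and export, changed most. It stood at 87.7 ± 17.4 CPM in DMSO Ova and 506 ± 34.3 in iBET Ova (SD, n = 3), a rise of 2.54 (adjusted p = 1.76e-07, SE 0.13). In IC it went from 71.9 ± 2.52 to 530 ± 22.5 CPM, a rise of 2.88 (adjusted p = 6.64e-08, SE 0.13). The antizyme genes, whose proteins bind ornithine decarboxylase and send it to degradation, rose too, with Oaz2 at 1.19 in Ova (adjusted p = 0.000146) and 1.18 in IC (0.00011) and Oaz1 at 0.42 and 0.49 (0.0161 and 0.00626). So did the antizyme inhibitors, with Azin2 at 1.88 and 1.65 (0.00454 and 0.00472) and Azin1 at 0.65 and 0.67 (0.00329 and 0.00239). The Azin2 rises start from a low level, with 36 counts in all in DMSO Ova and 52 in DMSO IC. Single libraries of these groups held as few as 4 and 8.

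Amd1, which supplies the aminopropyl donor for spermidine and spermine, rose by 0.73 in Ova (adjusted p = 0.000915) and by 0.82 in IC (0.000311), and Smox, spermine oxidase, by 0.60 and 0.52 (0.0273 and 0.0427). Srm, spermidine synthase, instead fell. It stood at 13.2 ± 3.96 CPM in DMSO Ova, 8.23 ± 0.643 in iBET Ova, 20.6 ± 2.77 in DMSO IC and 8.28 ± 0.860 in iBET IC. It fell by 0.71 in Ova (adjusted p = 0.0179, SE 0.20) and by 1.31 in IC (adjusted p = 0.000278, SE 0.20). Sms, spermine synthase, was called in IC at −0.33 (adjusted p = 0.0143), and stood at −0.08 in Ova (adjusted p = 0.531). Its interaction of −0.24 and that of Srm, −0.60, did not pass (unadjusted p = 0.0827 and 0.0534). With mouse as a replicate block Paox, a polyamine oxidase, was called higher with iBET in IC (0.74 without the block, adjusted p = 0.0515, and 0.0414 with it), and Sms was called higher with IC in DMSO (0.38, adjusted p = 0.0714 and 0.0475).

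**Figure D4:**
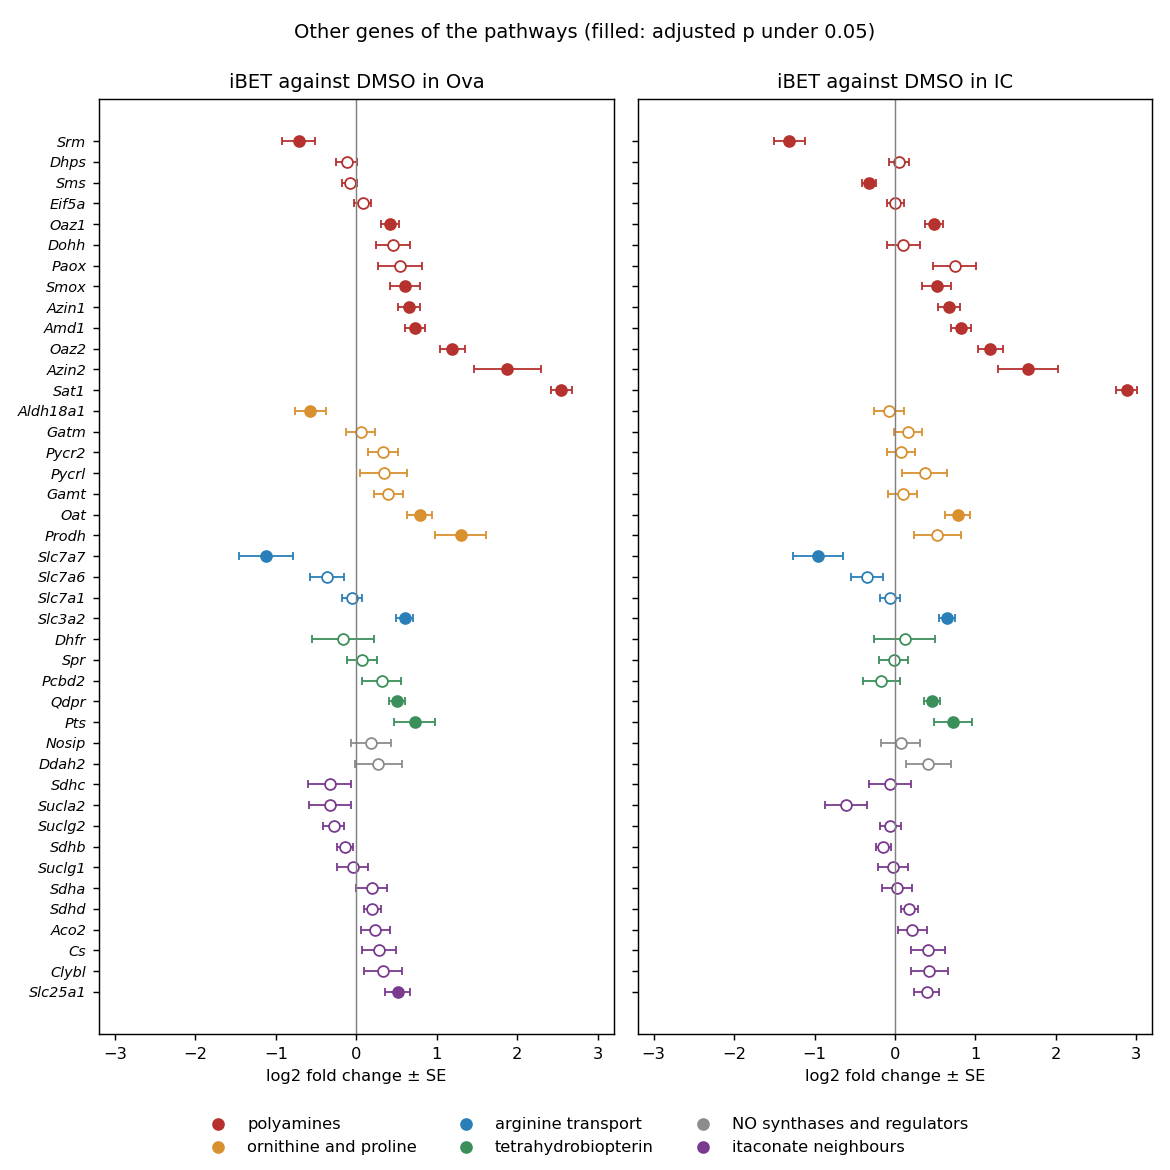
Log2 fold changes with their SE for iBET against DMSO, in Ova (left) and IC (right), of the 42 other pathway genes tested, coloured by list and filled where the adjusted p was under 0.05. The 7 polyamine genes called higher fan out to the right, from Oaz1 to Sat1, while the others of the 13 were not called higher. Srm, and Slc7a7 among the arginine carriers, lie furthest to the left.

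Of the polyamine calls with iBET, those of Sat1 and Oaz2 held in all 15 fits that left out 1 library or 1 mouse, and those of Amd1, Azin1 and Azin2 in the 12 that left out 1 library. Without mouse B, Azin1 (adjusted p = 0.116 in Ova and 0.0580 in IC), Azin2 (0.0946 and 0.0740) and Amd1 in Ova (0.0566) passed no longer, and without mouse C Azin2 in Ova (0.0746). Smox held in 7 of the 12 fits in Ova and in 4 in IC, with adjusted p up to 0.123 and 0.142. It was also lost without mouse B (0.244 in Ova and 0.394 in IC) and without mouse C (0.191 and 0.0916). Oaz1 was lost in Ova without DMSO Ova A (0.32, adjusted p = 0.0905), iBET Ova C (0.27, 0.0569), mouse B (0.105) or mouse C (0.130), and in IC without mouse B (0.108). Srm was lost in Ova without DMSO Ova C (−0.40, adjusted p = 0.135), iBET Ova B (0.0686), mouse B (0.0884) or mouse C (0.247), and Sms in IC without iBET IC A (0.0724) or any 1 mouse (0.0643 to 0.121). Amd1 has 8 near copies (92.2% to 99.9% identical, the protein-coding Amd2 among them), Sat1 and Oaz2 have 2 each, Oaz1 and Srm 1 each and Sms 6, so reads of these genes could be split between copies. Without DMSO Ova A the changes in Ova were 2.65 for Sat1, 1.93 for Azin2, 1.07 for Oaz2, 0.76 for Azin1, 0.75 for Amd1, 0.73 for Smox and −0.85 for Srm, all still called. The antisense gene Gm49077 overlaps 358 exonic bases of Azin1.

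The remaining lists held fewer calls. In all, 42 of 52 other pathway genes were tested, of which 13 rose and 3 fell with iBET in Ova, 11 rose and 3 fell in IC. That is 31.0% higher and 7.14% lower in Ova and 26.2% and 7.14% in IC, beside 17.1% and 14.2%, and 19% and 15.8%, of all genes. None was called for IC in either arm by edgeR, with 2 in each arm at an unadjusted p under 0.05. Without mouse B, 4 of the pathway genes were called with iBET in Ova and 6 in IC, in either direction. Among arginine carriers, 4 of 5 were tested. Slc3a2, the heavy chain shared by several amino acid carriers, rose by 0.60 in Ova (adjusted p = 0.000779) and by 0.65 in IC (0.000369), and Slc7a7, the light chain y+LAT1 that pairs with it to exchange arginine, fell by 1.12 and 0.96 (0.0229 and 0.0288). The constitutive arginine carrier Slc7a1 stood at −0.06 in both (0.762 and 0.713). The Slc7a7 call was lost in Ova without iBET Ova B (0.0788) or C (0.0685) and in IC without DMSO IC B or C or iBET IC B or C (0.0507 to 0.0919), and with either stimulus without mouse B or C (0.102 to 0.232). Slc7a7 shares 232 exonic bases with Oxa1l on the opposite strand.

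In the list of ornithine, proline and other fates of arginine, 7 of 11 genes were tested. Oat, which turns ornithine towards proline and glutamate, rose (0.79 in Ova, 0.78 in IC, adjusted p = 0.00257 and 0.00214) and was lost in Ova without mouse B alone (0.0577). Prodh, proline dehydrogenase, was called in Ova at 1.30 (adjusted p = 0.00813, the same direction in 2 of 3 mice) against 0.52 in IC (0.186), and Aldh18a1, which makes proline and ornithine precursors from glutamate, in Ova at −0.57 (0.0375) against −0.08 in IC (0.778). Neither interaction passed the test. The Prodh call was lost without DMSO Ova B or C (0.0580 and 0.0583) or mouse B or C (0.237 and 0.111), and the Aldh18a1 call held in 7 of the 12 fits (up to 0.145) and not without mouse B or C (0.275 and 0.128).

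Among the 11 genes of the tricarboxylic acid cycle and itaconate breakdown around Irg1, all tested, the only call was Slc25a1, the mitochondrial citrate carrier, which rose by 0.52 with iBET in Ova (adjusted p = 0.0232, lost in 4 of the 12 fits and without any 1 mouse, up to 0.110, and 0.41 with 0.0932 without DMSO Ova A) and stood at 0.39 in IC (adjusted p = 0.0615). With mouse as a replicate block Slc25a1 (adjusted p = 0.0429), citrate synthase gene Cs (0.40, adjusted p = 0.158 without the block and 0.0480 with it) and Sucla2, a succinyl-CoA ligase subunit (−0.61, 0.0896 and 0.0324), were also called in IC. Cs has 2 near copies, the protein-coding Csl among them. No succinate dehydrogenase subunit (Sdha, Sdhb, Sdhc and Sdhd) was called in any contrast of the main fit. Sdha, at 0.19 with iBET in Ova, was called there in 1 of the fits that left out a mouse. Outside the polyamine list, the calls in Ova without DMSO Ova A were Prodh at 1.62, Pts at 0.82, Oat at 0.59, Slc3a2 at 0.51, Qdpr at 0.37, Aldh18a1 at −0.74 and Slc7a7 at −1.03. Of the nitric oxide list, Ddah2 and Nosip were tested and not called, and Nos1, Nos3 and Ddah1 did not pass the filter. Nosip was called with iBET in Ova in 1 of the fits that left out a mouse.

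The interaction, with a background of 0%, called 0 of the 7 genes and 0 of all 11468 by edgeR, with 0 and 292 at an unadjusted p under 0.05, and DESeq2 called 0 of the 7 and 4 of all genes.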

How the data were processed

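Total RNA libraries of 12 BMDM samples were analysed, 3 per group, with the same 3 mice in each group. Per the labels and the study's methods, the authors trimmed reads with Trim Galore, checked them with FastQC, aligned them to mm10 with HISAT2 and counted them per gene with featureCounts. The gene annotation, strand setting and handling of multi-mapping reads were not given in the sources used here. The authors deposited a table of counts, used for every test, and a normalized signal, which equalled counts divided by DESeq2 size factors to within a relative gap of 4.89e-15. Counts were fitted in edgeR 4.0.16 (R 4.3.3) after filterByExpr (minimum count 10) and TMM normalization, by the robust quasi-likelihood F test with 1 term per group over the 12 libraries. P-values were two-sided and adjusted over all 11468 genes. SE are the absolute log2 fold change over the square root of F, CPM are TMM-scaled, and RPKM divide CPM by the exon length in GENCODE vM21. Per-mouse changes and correlations use log2 CPM (prior count 2).

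The members and lists were chosen with earlier results of these data known. The genes named were the 9 members, the pathway genes called in at least 1 two-group contrast, up to the 5 largest rises and 5 largest falls in each, and the 3 genes most like each called member among those with a mean of at least 5 CPM. A few others (Paox, Cs, Sucla2, Slc7a1 and the succinate dehydrogenase genes among them) were named after their values were seen. The labels pair the libraries by mouse. Deviations from group means correlated by a median of 0.26 in 18 same-mouse pairs, 12 of them over 0.1. In 36 pairs of different mice the median was −0.13, with 6 over 0.1. Deviations cancel out within a group of 3, which ties the second median to the first, so its sign is not separate support for the pairing. No libraries of a group agreed within sampling noise (chi-square per degree of freedom at least 8.85). Alternatives were DESeq2 1.42.0, its size factors, other filters, a mouse block, the compared groups alone, 1 surrogate variable (sva 3.50.0), Rn45s removed, the normalized signal in limma 3.58.1 with a pseudocount of 1, and each library or mouse left out.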

Additional observations from a re-analysis of the deposited data

Results flagged for a closer look

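Ass1 moved in opposite directions in the 2 arms in all 3 mice. IC against Ova was positive in each mouse in DMSO (0.99, 0.53 and 0.30 on the log2 scale in mice A, B and C) and negative in each in iBET (−0.07, −0.12 and −0.05). Likewise iBET against DMSO was positive in each mouse in Ova (1.01, 0.46 and 0.19) and negative in each in IC (−0.05, −0.20 and −0.16). The interaction, which tests both, was −0.48 (SE 0.64, 95% interval −1.90 to 0.94, unadjusted p = 0.471 in edgeR) and did not pass. That fit leaves out the pairing by mouse, so the differences of Ass1 between mice enter its SE. Per mouse the interaction was −1.06, −0.65 and −0.35. Over 8 alternatives, the mouse block among them, it ran from −0.79 to −0.46 and was called in 0. Leaving out DMSO Ova A, which leaves mice B and C in that group, gave −0.23. Both pairs of contrasts rest on the same 12 libraries and have the same interaction, so they are not 2 separate results.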

How the results depend on the processing

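Of 297 values (log2 fold changes of the 7 genes in the 5 contrasts) recomputed under 9 alternatives, 285 kept their direction and side of the threshold, 8 passed it anew, 4 no longer passed and 0 changed sign. The number of the 7 genes called for IC in DMSO (2) was 3 in DESeq2, with mouse as a replicate block and with 1 surrogate variable, Odc1 being added, 1 with at least 10 counts required in every library, a filter that Irg1 and Arg1 did not pass, and 0 in the compared groups alone, where 5 of all genes were called (80% higher) against 140 (60% higher). For IC in iBET (1) it was 0 with that filter and 2 in DESeq2, with mouse as a replicate block, in the 2 groups alone and with 1 surrogate variable, Odc1 being the added gene each time. All genes called for IC were 265 and 107 in DESeq2 and 504 and 130 with the surrogate variable in DMSO and iBET, and 99 in the 2 groups alone in iBET. The share higher among calls for IC in iBET was 90% as reported, 77.6% in DESeq2, 80% with the block, 73.7% in the groups alone 67.7% with the surrogate variable and 44.9% of 305 genes without mouse A. Apart from Odc1 for IC and Ass1 for iBET in Ova, the block changed no call of the 7 genes.

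With 1 library or mouse left out, the genes called numbered 0 to 2 for IC in DMSO, 0 to 1 for IC in iBET, 2 to 6 for iBET in Ova and 3 to 6 for iBET in IC, the lowest each time without mouse B. Of 525 such values 34 no longer passed and 30, none of them called, changed sign. These ran from −0.0145 to 1.03 (Ass1) and −0.0218 to 0.22 (Asl) for IC in DMSO, −0.46 to 0.28 (Ass1) and −0.88 to 0.13 (Arg1) for IC in iBET, −0.0372 to 0.96 and −0.54 to 0.25 (Ass1) for iBET in Ova and in IC, and in the interaction −0.11 to 0.55 (Irg1), −0.56 to 0.45 (Arg1), −0.23 to 0.0175 (Gch1), −0.16 to 0.25 (Asl) and −0.0624 to 0.16 (Odc1). Depth left Nos2 and Arg2 untested. P-values of the main fit measure the spread between libraries within groups, 3 animals per group, pooled over the 12 libraries. They leave out the pairing by mouse.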
